A study of Mus musculus with 2 samples.

Results

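The 10 genes described here belong to the stress response built around the transcription factor ATF4 and to the unfolded protein response of the endoplasmic reticulum (ER). They were taken by symbol from the deposited matrix: Atf4, Ddit3, Asns, Chac1, Trib3, Sesn2, Hspa5, Xbp1, Herpud1 and Sdf2l1. These symbols matched 11 of the 33696 matrix rows, because Ddit3 has 2. The library was 1 pool of clones 76 and 84 of KPCY 6419c5, a mouse pancreatic ductal adenocarcinoma line, mixed in equal numbers after 19 days of editing. All cells carried BASELINE, a lineage recorder that uses an adenine base editor built on Cas12a, so no unedited or untreated group was compared. Each clone grew from a single cell, and no label used here ties a barcode to a clone.

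Of 22178 barcodes, all distinct, 21361 were kept. Kept cells had 2000 or more unique molecular identifiers (UMIs, each counting 1 captured RNA) and 1000 or more genes, with a mitochondrial share of up to 15%. Cells were placed in 2 classes by genes that are not among the 10. A cells had at least 2 UMIs summed over Pde10a, Plcb1, Galnt18, Arhgap15 and Ceacam1, and at least 3 times their UMIs of the B set. B cells met the mirror rule for S100a7a, Rgs20, Hs6st2, Ccbe1, Ctse and Mal. There were 7816 A cells (36.6%), 8936 B cells (41.8%) and 4609 cells in neither class (21.6%). Of those in neither class, 3966 had under 2 UMIs of both sets and 643 had UMIs of both. The median depth was 4699.5 UMIs in A cells, 5440.5 in B cells and 4325 in the rest. The median mitochondrial share was 3.19%, 1.89% and 2.77%. Keratins, markers of a ductal carcinoma line, were present in both classes, with Krt18 at 1083 CPM in A cells and 3019 CPM in B cells and Krt8 at 919 and 1498 CPM (CPM, UMIs of the gene per 1000000 UMIs of the class). Krt7 was at 53.4 and 1358 CPM, and Sox9, a ductal transcription factor, was close to absent at 1.91 and 5.68 CPM. Acinar markers, whose cells are rich in Xbp1, summed to 13.7 and 4.51 CPM, with 4 of 7 at 0, and markers of plasma and B lymphocytes to 9 and 0 UMIs. Both classes come from 1 library, so cells are not replicates and no test between them was possible. Intervals below are exact 95% counting intervals and cover neither the spread between cells nor that between cultures. They treat each UMI as independent, so they are too narrow where the UMIs of a gene are concentrated in few cells.

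In the integrated stress response, kinases that sense ER stress, amino acid shortage, viral RNA or heme shortage phosphorylate eIF2α, which lowers protein synthesis in general but raises the translation of Atf4 mRNA. ATF4 then switches on genes for amino acid supply and, under lasting stress, Ddit3 and its partners. The unfolded protein response adds the sensor IRE1, which splices Xbp1 mRNA into the form that encodes an active factor, and ATF6, which is cut into one; both raise chaperones and the machinery that removes misfolded proteins. Acinar cells of the pancreas, whose markers were low in this library, are secretory and are known for a strong dependence on these pathways. Because ATF4 is controlled largely in translation and XBP1 by splicing, mRNA counts from 3′ ends report neither activity directly.

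All 10 genes had a promoter window in the RefSeq table, of 250 bases before the annotated start on build GRCm38.p6. The counts were made on another build, GRCm39, so the windows serve only to show sequence. The 4 windows that held an exact match to a known ER-stress or ATF4 type of motif are shown. The capitals mark the motif, and each window lies directly upstream of the first exon and is printed 5′ to 3′ in the direction of the gene.
Hspa5, chr2:34771840-34772089, plus strand: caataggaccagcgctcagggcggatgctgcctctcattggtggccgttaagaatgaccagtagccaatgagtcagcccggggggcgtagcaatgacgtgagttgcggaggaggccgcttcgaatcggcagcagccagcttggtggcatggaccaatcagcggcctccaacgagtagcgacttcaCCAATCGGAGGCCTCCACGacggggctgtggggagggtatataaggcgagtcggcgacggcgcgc
Herpud1, chr8:94386179-94386428, plus strand: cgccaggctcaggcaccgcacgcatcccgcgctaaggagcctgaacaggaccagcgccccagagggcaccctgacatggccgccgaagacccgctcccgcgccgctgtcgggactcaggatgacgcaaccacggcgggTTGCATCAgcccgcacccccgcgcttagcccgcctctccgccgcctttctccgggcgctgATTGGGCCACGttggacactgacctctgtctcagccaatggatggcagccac
Asns, chr6:7693210-7693459, minus strand: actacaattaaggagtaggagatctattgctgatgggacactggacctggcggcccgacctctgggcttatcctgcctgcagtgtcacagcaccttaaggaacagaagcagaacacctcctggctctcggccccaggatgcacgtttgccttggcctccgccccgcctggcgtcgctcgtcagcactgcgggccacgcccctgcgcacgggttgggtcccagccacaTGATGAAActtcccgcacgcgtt
Chac1, chr2:119350992-119351241, plus strand: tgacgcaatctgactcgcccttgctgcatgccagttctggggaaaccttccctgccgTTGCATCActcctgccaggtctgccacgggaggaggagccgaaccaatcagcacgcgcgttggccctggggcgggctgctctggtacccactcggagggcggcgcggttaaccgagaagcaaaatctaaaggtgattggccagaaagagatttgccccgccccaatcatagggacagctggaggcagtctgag

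Motifs were searched on both strands, and no match overlapped a match of another motif. The ER stress element, CCAAT and CCACG with any 9 bases between them, was in the window of Hspa5, 65 to 47 bases before the start, and in 0.113% of all 32851 windows. Its second form, ATTGG and CCACG with any 1 base between them, was in the window of Herpud1, 52 to 42 bases before the start, and in 0.0304% of all windows. The C/EBP-ATF response element, TGATGNAA, was in the windows of Asns, Chac1 and Herpud1, at 23 to 16, 193 to 186 and 112 to 105 bases before the start, and in 3.45% of all windows. The XBP1 core TGACGTGG was in 0 of the 10 windows and in 0.563% of all windows. A match describes the letters and is not a measured binding site.

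The ATF4 and ER genes differed little in summed level between the classes, with 3 exceptions. Sdf2l1 was 1.76-fold higher in B cells, whereas Trib3 and Chac1 were 3.50-fold and 2.33-fold higher in A cells at very low levels. The other 7 genes lay within 1.2-fold. Of the 8800 genes that reached 10 CPM in A or B cells, 17.6% were past 2-fold, 10.3% higher in A cells and 7.26% higher in B cells. Of the 10 genes, 7 reached that level and 0 of them were past 2-fold. The log2 ratio of A over B had a median of 0.17 over the 8800 genes, so each ratio below would be 0.17 lower if set against the median gene. The median of the absolute log2 ratio over those genes was 0.41.

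**Figure D1:**
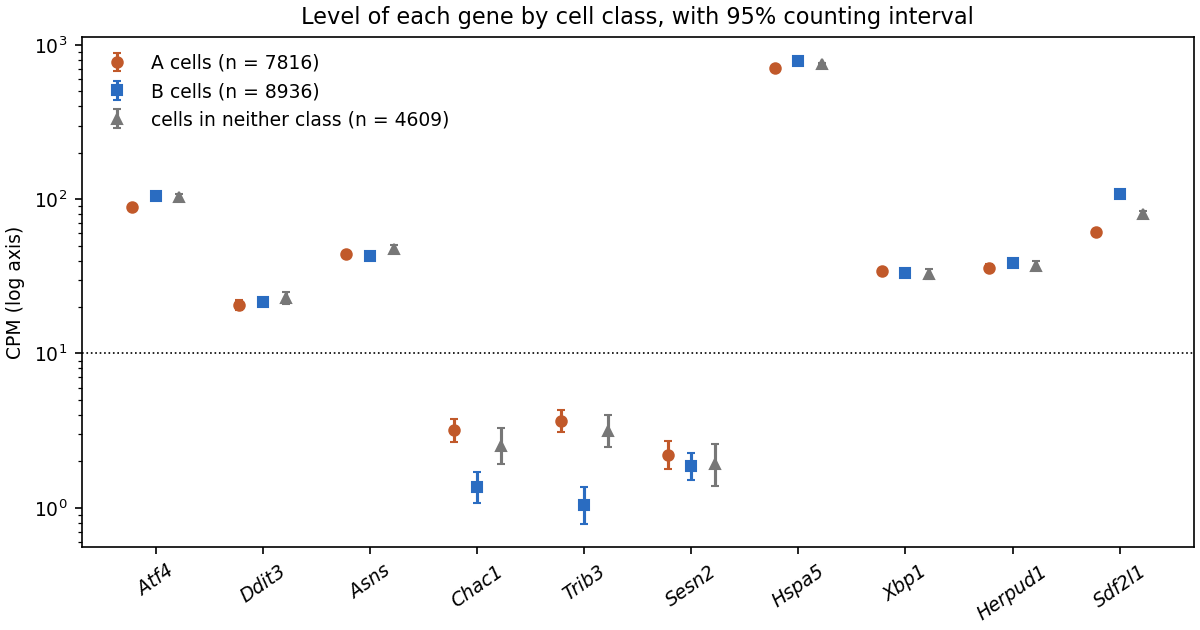
Level of each of the 10 genes in CPM (log axis) in A cells, B cells and cells in neither class. Points are summed counts with exact 95% counting intervals, and the dotted line is at 10 CPM; only Sdf2l1, Chac1 and Trib3 show clearly separate points for A and B cells.

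Atf4, the factor at the head of the branch, was at 89.2 CPM (interval 86.3 to 92.1) in A cells, 105 CPM (102 to 108) in B cells and 104 CPM in the cells of neither class. Its log2 ratio of A over B was -0.23 (-0.29 to -0.17), a difference beyond counting error but of 1.17-fold. After thinning each cell to 3000 UMIs, 21.6% of A cells and 26.6% of B cells had an Atf4 UMI. Without thinning these shares were 34.1% and 43.3%. Thinning left out 410 A cells and 109 B cells that were shallower. No cell type known to lack these genes was in the library, so the share that free RNA alone would give was not measured.

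Of the direct ATF4 targets, Asns and Ddit3 showed no difference beyond counting error between the classes in CPM. Asns encodes asparagine synthetase, which makes asparagine from aspartate. It was at 44.3 CPM in A cells and 42.9 CPM in B cells, a log2 ratio of 0.05 (-0.04 to 0.14). Ddit3 encodes CHOP, a factor that promotes cell death under lasting stress, and was at 20.6 and 21.7 CPM, a log2 ratio of -0.07 (-0.20 to 0.06). Both intervals hold 0 on this scale. Against the median gene the ratio of Ddit3 was -0.24, outside its interval in CPM. All Ddit3 UMIs fell on the row ENSMUSG00000025408. The second row with this symbol, ENSMUSG00000116429, had 0 UMIs, which allows up to 3, and reads that fitted both features may have been left out of the count, so the level of Ddit3 is uncertain.

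The remaining 3 targets were sparse. Chac1 encodes an enzyme that breaks down glutathione, and had 128 UMIs in A cells and 72 in B cells, or 3.18 CPM (2.65 to 3.78) and 1.36 CPM (1.07 to 1.72). Trib3 encodes a pseudokinase that restrains ATF4 and AKT signalling, and had 147 and 55 UMIs, or 3.65 CPM (3.08 to 4.29) and 1.04 CPM (0.785 to 1.36). These intervals do not overlap. The log2 ratios were 1.22 (0.79 to 1.66) for Chac1 and 1.81 (1.35 to 2.28) for Trib3. Sesn2 encodes a leucine sensor that restrains mTORC1, and its 89 and 98 UMIs gave 2.21 and 1.86 CPM, a log2 ratio of 0.25 (-0.18 to 0.68). Among 3866 genes with at least 1 and under 10 CPM in the higher class, 41.7% were past 2-fold and 24.9% were past it with the higher level in A cells. Against that background, 2 of 3 sparse genes past 2-fold is not a result about these genes. In cells with 1 to 4% mitochondrial UMIs the log2 ratios were 1.36 for Chac1 and 1.91 for Trib3.

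On the ER side, Hspa5 encodes BiP, the main chaperone of the ER lumen and the protein that holds the stress sensors inactive. It was at 709 CPM (701 to 717) in A cells and 790 CPM (783 to 798) in B cells, a log2 ratio of -0.16 (-0.18 to -0.13). A UMI of Hspa5 was seen in 83.0% of A cells and 83.4% of B cells after thinning. Xbp1, whose spliced and unspliced forms the 3′ counts do not separate, was at 34.1 and 33.1 CPM, a log2 ratio of 0.04 (-0.06 to 0.15). Herpud1 encodes a membrane protein of ER-associated degradation (ERAD), and was at 36.0 and 38.7 CPM, a log2 ratio of -0.10 (-0.20 to -0.01).

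Sdf2l1, which encodes an ER-resident partner of BiP and its cochaperones, was the exception on this side. It was at 61.5 CPM (59.1 to 63.9) in A cells, 80.4 CPM in the cells of neither class and 108 CPM (106 to 111) in B cells. Its log2 ratio was -0.82 (-0.89 to -0.75), or -0.99 against the median gene, which does not reach 2-fold. After thinning, 16.8% of A cells and 26.4% of B cells had a Sdf2l1 UMI. In cells with 1 to 4% mitochondrial UMIs the ratio was -0.82, the same as over all cells. The direction for Ddit3, Asns and Xbp1 turned under some of the alternatives tried (values from -0.24 to 0.07, -0.12 to 0.09 and -0.12 to 0.13), so none is read for them.

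**Figure D2:**
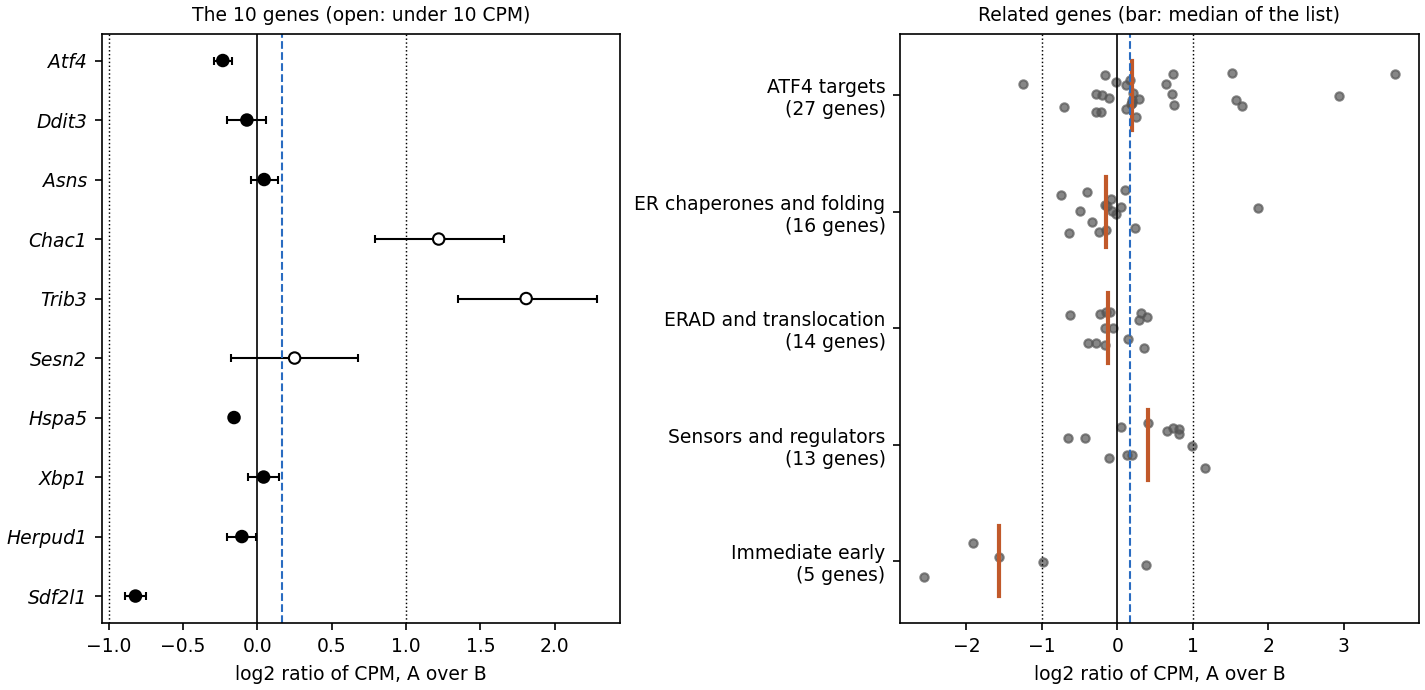
Log2 ratio of CPM in A over B cells, for the 10 genes with exact 95% counting intervals (left; open circles are under 10 CPM) and for single genes of the related lists (right; orange bars are list medians). Dotted lines are 2-fold and the dashed line is the median of all genes, 0.17; Sdf2l1 sits at -0.82, and Gdf15 at 3.68 is the farthest right among the ATF4 targets.

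Among the wider set of genes known to be raised by ATF4, the share past 2-fold was near that of all genes. Of 34 listed genes, 27 had at least 10 CPM, with 5 past 2-fold higher in A cells, 1 higher in B cells and 21 past neither; the median log2 ratio was 0.20, beside 0.17 over all genes. The 6 of 27 stand beside 17.6% of all genes past 2-fold, so the count is not a result about the set, and the genes below are described one by one. Gdf15, a stress-induced hormone, was at 118 CPM in A cells and 9.25 CPM in B cells, a log2 ratio of 3.68 (3.54 to 3.82). Stc2, a secreted glycoprotein, was at 101 and 13.1 CPM, a log2 ratio of 2.94. Nupr1, a small stress-response protein, was at 185 and 59.1 CPM, a log2 ratio of 1.64. Slc7a11, the cystine importer, was at 28.0 and 9.47 CPM, a log2 ratio of 1.57 (1.41 to 1.72). Also past 2-fold were Cth, an enzyme that makes cysteine, at 41.9 and 14.7 CPM, and, in the other direction, Slc7a1, an importer of arginine and lysine, at 44.9 and 107 CPM. The genes of serine synthesis and the aminoacyl-tRNA synthetases of the list stayed under 2-fold, among them Phgdh at 594 and 665 CPM, Psat1 at 67.5 and 82.1 CPM and Aars1 at 58.5 and 34.6 CPM.

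The ER chaperones and folding enzymes were near the same level in both classes, with 16 of 18 at 10 CPM or more, 1 past 2-fold higher in A cells, 0 higher in B cells and a median log2 ratio of -0.14. Of all genes, 17.6% were past 2-fold, a share that also stands beside the counts of the next lists. The 1 was Dnajc10, an ER reductase, at 300 and 82.7 CPM (log2 ratio 1.86). Next came Fkbp2 at -0.74, Creld2 at -0.64 and Manf at -0.49, all with more in B cells, as for Sdf2l1. Of 17 symbols listed for ERAD and translocation, 16 were in the matrix and 14 reached 10 CPM. Of these, 0 were past 2-fold and the median was -0.12, with Selenok at -0.62, Sec61g at -0.39, Edem2 at 0.39 and Ufd1 at 0.35. Of the sensors and regulators, 13 of 15 reached 10 CPM, 1 was past 2-fold and the median was 0.40. That gene was Eif2ak4, which encodes GCN2, the sensor of amino acid shortage, at 32.7 and 14.7 CPM (1.15). Eif2ak2, which encodes PKR, was at 0.98, Mbtps1 and Atf6b at 0.81 each, and Eif2ak3, which encodes PERK, at 0.19. Immediate early genes, which respond to handling, differed too: 3 of 5 were past 2-fold higher in B cells (Fos, Junb and Ier3), beside 7.26% of all genes, with a summed level of 266 CPM in A cells and 634 CPM in B cells. Their part in the differences above was not tested.

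Within a class, the genes were only weakly correlated from cell to cell. Pearson correlations of log2(UMIs + 1) were taken across 7406 A cells and 8827 B cells, all thinned to 3000 UMIs. Over the 45 pairs they ran from -0.0184 to 0.0819, and 29 pairs were above 0 in both classes. The cells share 1 library, and for most genes the counts were 0 or 1, so the values are given as a description. Within the 5 ATF4 targets the mean r was 0.0331 in A cells (10 of 10 pairs above 0) and 0.0274 in B cells (8 of 10). Within the 4 ER genes it was 0.0282 and 0.0329 (5 of 6 pairs in each). Between the 2 sides it was 0.0113 and 0.0062 (12 of 20 in each). The values depend on depth and filter. Under a strict cell filter (5000 UMIs, 2000 genes and a mitochondrial share of up to 10%) the mean within the ATF4 targets in A cells was 0.0147, near the 0.0107 between the sides, and in cells thinned to 5000 UMIs these means were 0.0573 and 0.0225. Atf4 was above 0 with each of its 5 targets in both classes, with a mean of 0.0335 and 0.0386, and its mean with the ER genes was 0.0151 and 0.0154.

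**Figure D3:**
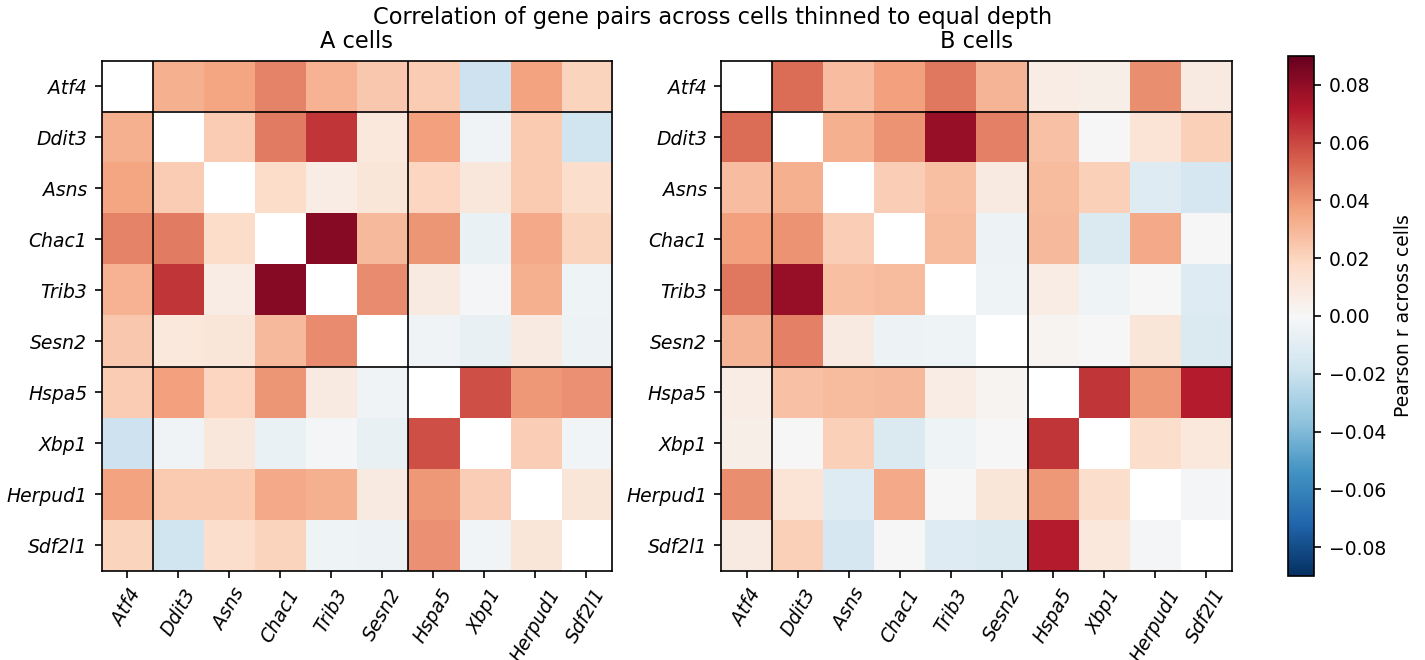
Pearson r across cells for each pair of the 10 genes, in A cells (left) and B cells (right), on cells thinned to 3000 UMIs. Lines set off Atf4, its 5 targets and the 4 ER genes; the darkest cells are Chac1 with Trib3 in A cells (0.0819), Ddit3 with Trib3 in B cells (0.0785) and Hspa5 with Sdf2l1 in B cells (0.0705).

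The counts of cells with both genes show what these values rest on. Ddit3 and Trib3 were found together in 15 A cells, where independence would give 4.13, and in 8 B cells, where it would give 1.38. Ddit3 and Chac1 were together in 10 A cells against 3.65 and in 6 B cells against 1.68. Chac1 and Trib3 shared 6 A cells against 0.707 and 1 B cell against 0.101. Further pairs of targets also rested on few cells. Asns and Trib3 were together in 10 A cells against 9.41 and in 6 B cells against 3.13. Ddit3 and Sesn2 were together in 3 A cells against 2.25 and in 7 B cells against 2.19. Sesn2 shared 0 B cells with Chac1, against 0.161, and 0 with Trib3, against 0.132. Over the 10 pairs of targets, all 10 were above independence in A cells and 8 in B cells. On the ER side, Hspa5 and Xbp1 were together in 618 A cells against 578 and in 690 B cells against 662. Hspa5 was found in most cells, so such counts can exceed independence only slightly and are not comparable with those of the sparse targets. The r of Hspa5 and Xbp1, 0.0580 and 0.0642, lay near that of Ddit3 and Trib3, 0.0642 and 0.0785. Herpud1 was the ER gene nearest to Atf4, at r of 0.0360 in A cells and 0.0419 in B cells. It was found with Atf4 in 187 A cells against 161, and in 295 B cells against 248.

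The genes of a side were also read in cells that held UMIs of the other genes of that side, on the same thinned counts. The ATF4 targets are so sparse that cells with at least 1 UMI of them were set against cells with 0. For Atf4 these were 1368 A cells (18.5%) and 1466 B cells (16.6%). Atf4 was at 112 CPM against 81.2 CPM in A cells, a log2 ratio of 0.46 (0.31 to 0.61), and at 127 against 101 CPM in B cells, 0.33 (0.20 to 0.47). Split by the other 4 targets, Asns was at 57.8 against 43.4 CPM in A cells, 0.41 (0.09 to 0.72), and at 63.4 against 40.9 CPM in B cells, 0.63 (0.32 to 0.93). Ddit3 had 0.75 (0.40 to 1.08) and 0.80 (0.47 to 1.12). The sparse targets rested on few UMIs. Chac1 had 29 and 13 UMIs in the cells with another target, and log2 ratios of 1.66 (0.93 to 2.38) and 1.73 (0.60 to 2.81). Trib3 had 32 and 15 UMIs, and ratios of 1.53 (0.85 to 2.20) and 2.44 (1.29 to 3.61). Sesn2 had 13 and 14 UMIs, and ratios of 1.02 (-0.05 to 2.01), an interval that held 0, and 1.26 (0.23 to 2.22).

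For the ER genes the cells were cut at the whole UMI count that left a share nearest to 10%, which gave from 6.82 to 12.6% of a class. Hspa5 held most UMIs of the ER genes, so the splits for Xbp1, Herpud1, Sdf2l1 and Atf4 were mainly splits by Hspa5. Hspa5 had a log2 ratio of 0.21 (0.12 to 0.29) in A cells and 0.37 (0.31 to 0.43) in B cells. Herpud1 had 0.59 (0.26 to 0.91) and 0.52 (0.27 to 0.77), and Sdf2l1 0.39 (0.17 to 0.60) and 0.46 (0.30 to 0.61). Xbp1 had 0.19 (-0.21 to 0.56) in A cells, an interval that held 0, and 0.63 (0.37 to 0.89) in B cells. Atf4, split by the ER genes, had 0.20 (-0.03 to 0.42) and 0.23 (0.03 to 0.42). With the top 10% of cells taken and ties broken at random, the interval for Atf4 in B cells held 0 as well, at 0.10 (-0.07 to 0.28). In the same setting the intervals of Asns in A cells, at 0.26 (-0.03 to 0.54), and Sesn2 in B cells, at 0.77 (-0.64 to 1.95), held 0, and that of Sesn2 in A cells, at 1.30 (0.05 to 2.39), did not.

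A UMI of Chac1 or Trib3, both rare transcripts, marked a small set of cells with more of the ATF4 programme in each class. This split was chosen after the values had been seen. The set held 139 of 7406 A cells (1.88%, Clopper-Pearson interval 1.58 to 2.21%) and 59 of 8827 B cells (0.668%, 0.509 to 0.861%). Atf4 was at 163 CPM in the A cells of the set and 85.4 CPM in the other A cells, a log2 ratio of 0.93 (0.56 to 1.28). In B cells it was at 260 and 104 CPM, 1.32 (0.87 to 1.74). Under the strict cell filter the ratio for Atf4 in A cells was 0.48 (-0.17 to 1.07), an interval that holds 0. Ddit3 showed the larger ratio: 62.4 against 18.6 CPM in A cells, 1.74 (1.11 to 2.32), and 107 against 18.5 CPM in B cells, 2.54 (1.79 to 3.19). Asns had 64.7 against 44.1 CPM in A cells, 0.55 (-0.05 to 1.10), and 90.4 against 41.9 CPM in B cells, 1.11 (0.30 to 1.81). Under the strict filter Asns turned to -0.56 (-2.02 to 0.57) in A cells, so no direction is read for it there. Sesn2 rested on 5 UMIs in the A cells of the set, 12.0 against 1.70 CPM, and on 0 UMIs in the B cells.

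The ER genes were mixed in these cells. Herpud1 was at 74.3 against 35.8 CPM in A cells, 1.05 (0.49 to 1.57), and 73.4 against 37.8 CPM in B cells, 0.96 (0.05 to 1.74). Hspa5 was at 856 against 712 CPM in A cells, 0.27 (0.11 to 0.42), and 1068 against 804 CPM in B cells, 0.41 (0.19 to 0.62). The intervals of Xbp1 and Sdf2l1 held 0 in both classes, with Xbp1 at 33.6 against 34.2 CPM and Sdf2l1 at 79.1 against 62.6 CPM in A cells. Both were lower in the B cells of the set, Xbp1 at 16.9 against 32.2 CPM on 3 UMIs and Sdf2l1 at 96.0 against 106 CPM. In B cells the intervals of Herpud1 and Hspa5 came to hold 0 with cells thinned to 5000 UMIs, at 0.73 (-0.04 to 1.39) and 0.17 (-0.01 to 0.35). They held 0 under the strict filter too, at 0.88 (-0.33 to 1.87) and 0.24 (-0.05 to 0.52). In A cells both intervals stayed above 0 in these settings. There Xbp1 had 0.68 (0.01 to 1.28) with cells thinned to 5000 UMIs, an interval above 0.

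**Figure D4:**
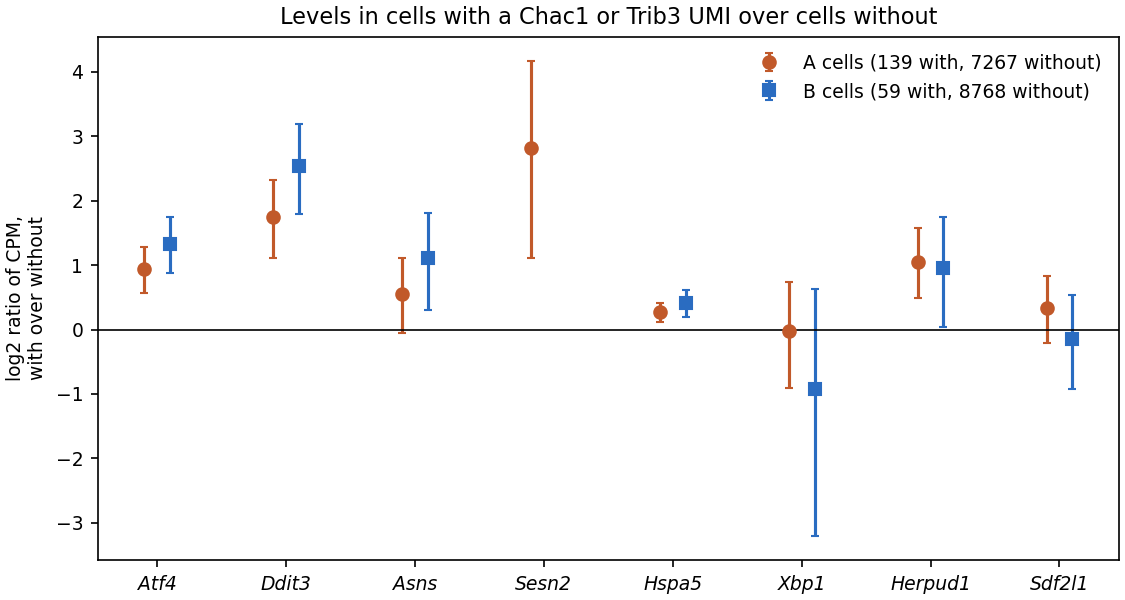
Log2 ratio of CPM in cells with a Chac1 or Trib3 UMI over cells without, in A cells (circles) and B cells (squares), with exact 95% counting intervals; Sesn2 has no point in B cells, where the cells of the set held 0 UMIs. Atf4, Ddit3, Hspa5 and Herpud1 lie above 0 in both classes, and Xbp1 and Sdf2l1 have intervals that hold 0; the plotted values are on cells thinned to 3000 UMIs.

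The other ATF4 targets, none of which was used to choose the cells, were higher in the set almost throughout. Of targets with at least 100 UMIs, 29 of 30 had the higher level in the set in A cells and 28 of 29 in B cells. Of all genes with at least 100 UMIs, 47.0% and 47.3% did. The counting interval lay wholly above no difference for 20 of 30 targets in A cells and 17 of 29 in B cells, beside 3.01% and 2.73% of all genes. The median log2 ratio of the targets was 0.72 and 0.92, and that of all genes -0.03 in each. ER chaperones were divided, with 8 of 17 higher in A cells and 9 of 17 in B cells, and medians of 0.00 and 0.03.

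Among the targets that act in amino acid supply, the size of the difference varied. Slc3a2, the shared chain of several amino acid importers, was at 197 against 84.8 CPM in A cells and 147 against 72.2 CPM in B cells. Psph, the last enzyme of serine synthesis, was at 113 against 53.7 CPM and at 186 against 44.7 CPM. Phgdh, the first enzyme of that pathway, had 0.17 (-0.01 to 0.34) and 0.13 (-0.13 to 0.38), and both intervals held 0. Slc7a5, an importer that pairs with Slc3a2, had 1.16 (0.62 to 1.66) in A cells and 0.05 (-1.40 to 1.17) in B cells, and Slc7a1 had 0.77 (0.20 to 1.29) and 0.11 (-0.61 to 0.74). Slc38a2, a glutamine importer, had 0.20 (-0.12 to 0.50) and 0.54 (0.14 to 0.91). Eif4ebp1, a repressor of cap-dependent translation, was at 420 against 178 CPM and at 395 against 168 CPM. Gdf15 was at 199 against 117 CPM in A cells, 1.70-fold, and at 79.1 against 7.15 CPM in B cells, on 14 UMIs in the B cells of the set. The cells of the set had a median mitochondrial share of 2.74% against 3.17% in A cells and 1.73% against 1.89% in B cells. Of them, 2 in A cells and 0 in B cells were marked as doublets. With cells chosen by Chac1 alone, 25 of 30 targets in A cells and 23 of 29 in B cells were higher, and by Trib3 alone 30 of 30 and 27 of 29. The interval then lay wholly above no difference for fewer targets with Chac1 alone, 11 in A cells and 10 in B cells, and for 20 and 15 with Trib3 alone. These sets held 68 A cells and 33 B cells with Chac1, and 77 and 27 with Trib3. Shares over all genes were not taken for them, so these counts are given as values only.

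The genes outside the 10 that ran most with each side included many of the same 2 pathways. They were ranked by the smaller of the A and B correlations with the summed side, over 5917 genes seen in at least 5% of thinned cells of each class. Hspa5 made up most of the ER sum, at a mean of 2.14 UMIs per thinned A cell. Sdf2l1 had 0.189, Herpud1 0.110 and Xbp1 0.102, so the ER ranking mainly shows relations to Hspa5. Asns and Ddit3 made up most of the ATF4 sum, at means of 0.133 and 0.0583. For the ATF4 targets the 10 nearest were Sqstm1, Nupr1, Psph, Fth1, Vegfa, Nars, Eif4ebp1, Sars, Tars and Eif1, with a smaller r from 0.0343 to 0.0729. Of these, 7 were in the ATF4 list, as were 11 of its 21 ranked genes in the first 100. For the ER genes they were Hsp90b1, Pdia3, Calr, Manf, Rrbp1, Fndc3b, Selenos, Gsta4, Cyb5a and Serp1, with a smaller r from 0.0436 to 0.136. Of these, 5 were in the ER and ERAD lists. Among the first 100 were 12 of the 16 ranked ER chaperones, against 2 of 21 ATF4 targets. The ATF4 side had 1 of 16 ER chaperones in its first 100. At the other end, ranked by the larger of the A and B correlations, the lowest for the ER side were Top2a, H1f5, Hmgb2 and Mki67, genes with high levels in dividing cells, with r for Top2a of -0.122 in A cells and -0.181 in B cells.

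The levels behind this were read against mitotic transcripts, the summed UMIs of 10 genes such as Top2a, Mki67 and Cenpf. This uses the same cells and genes as the correlations, so it shows the same relation as levels and is no further result. Cells of each class were ranked and cut into 4 equal parts. Hspa5 was at 837 CPM in the lowest 25% of A cells and 624 CPM in the highest 25%, a log2 ratio of -0.42 (-0.49 to -0.36). In B cells it was at 1016 and 640 CPM, -0.67 (-0.72 to -0.61). Xbp1 was at 54.7 and 24.7 CPM in A cells, -1.15 (-1.45 to -0.85), and at 40.6 and 26.6 CPM in B cells, -0.61 (-0.89 to -0.33). Of the other ER genes, Herpud1 had -0.57 (-0.85 to -0.29) and -0.27 (-0.53 to -0.01). Sdf2l1 was at 64.1 and 61.0 CPM in A cells, -0.07 (-0.29 to 0.15), an interval that held 0, and had -0.26 (-0.41 to -0.11) in B cells. With cells thinned to 5000 UMIs, which leaves out 4501 A cells and 3394 B cells, Xbp1 had -0.55 and -0.08, and Hspa5 -0.29 and -0.65. This setting changes both the cells kept and the depth of the counts, and the part of each was not tested. The interval of Xbp1 in B cells then held 0 (-0.35 to 0.19). Ranked by depth at 3000 UMIs, Xbp1 was at 47.0 CPM in the shallowest 25% of A cells and 29.0 CPM in the deepest 25%.

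Of the 7 genes with at least 10 CPM, 1 in A cells (Xbp1) and 3 in B cells (Hspa5, Ddit3 and Xbp1) were past 1.5-fold, all lower in the highest mitotic part. Over all genes the share past 1.5-fold in either direction was 11.3% in A cells and 7.19% in B cells, and nothing is read from the counts, since the ranking followed from the correlations. Ddit3 was at 24.3 and 18.4 CPM in A cells and 24.6 and 15.3 CPM in B cells, log2 ratios of -0.40 (-0.79 to -0.02) and -0.69 (-1.06 to -0.32). Atf4 and Asns did not share this slope. Atf4 was at 80.8 and 97.4 CPM in A cells, 0.27 (0.09 to 0.45), and at 102 and 103 CPM in B cells. Asns had intervals that held 0 in both. Of the sparse targets, Chac1 in B cells was at 1.96 and 0.302 CPM, on 13 and 2 UMIs, -2.70 (-5.89 to -0.56). Its interval in A cells held 0, as did those of Trib3 and Sesn2 in both classes.

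Against the mitochondrial share of UMIs, Atf4 and 3 of its 5 targets were lower in A cells with a high share, and for the other 2 targets the interval held 0. From the lowest to the highest 25% of A cells, with medians of 2.52% and 3.98%, Atf4 was at 111 and 70.8 CPM, a log2 ratio of -0.65 (-0.84 to -0.47). Asns was at 59.4 and 33.5 CPM, -0.83 (-1.09 to -0.56). Trib3 was at 8.10 and 1.44 CPM, -2.49 (-3.79 to -1.39), and Chac1 at 6.84 and 2.16 CPM, -1.66 (-2.73 to -0.70). Ddit3 was at 23.4 and 20.5 CPM, -0.19 (-0.56 to 0.19), and Sesn2 at 3.06 and 1.62 CPM, -0.92 (-2.26 to 0.33). Xbp1 went the other way, at 29.0 and 46.8 CPM, 0.69 (0.40 to 0.98), as did Herpud1, at 35.6 and 45.2 CPM, 0.34 (0.07 to 0.62). The intervals of Hspa5 and Sdf2l1 held 0, and Hspa5 was at 709 and 726 CPM. Past 1.5-fold were 3 of the 7 genes, beside 7.78% of all genes. In B cells, whose lowest and highest parts had medians of 1.50% and 2.36%, 0 of 7 were past 1.5-fold, beside 1.92% of all genes. There Atf4 had -0.12 (-0.28 to 0.03) and Asns -0.09 (-0.33 to 0.15). Ddit3 was lower at a high share in B cells, at 24.6 and 18.6 CPM, -0.41 (-0.76 to -0.06), and so was Hspa5, by little, at -0.08 (-0.13 to -0.02). The intervals of the other 6 genes held 0 there. The difference between the classes in these slopes was not tested.

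**Figure D5:**
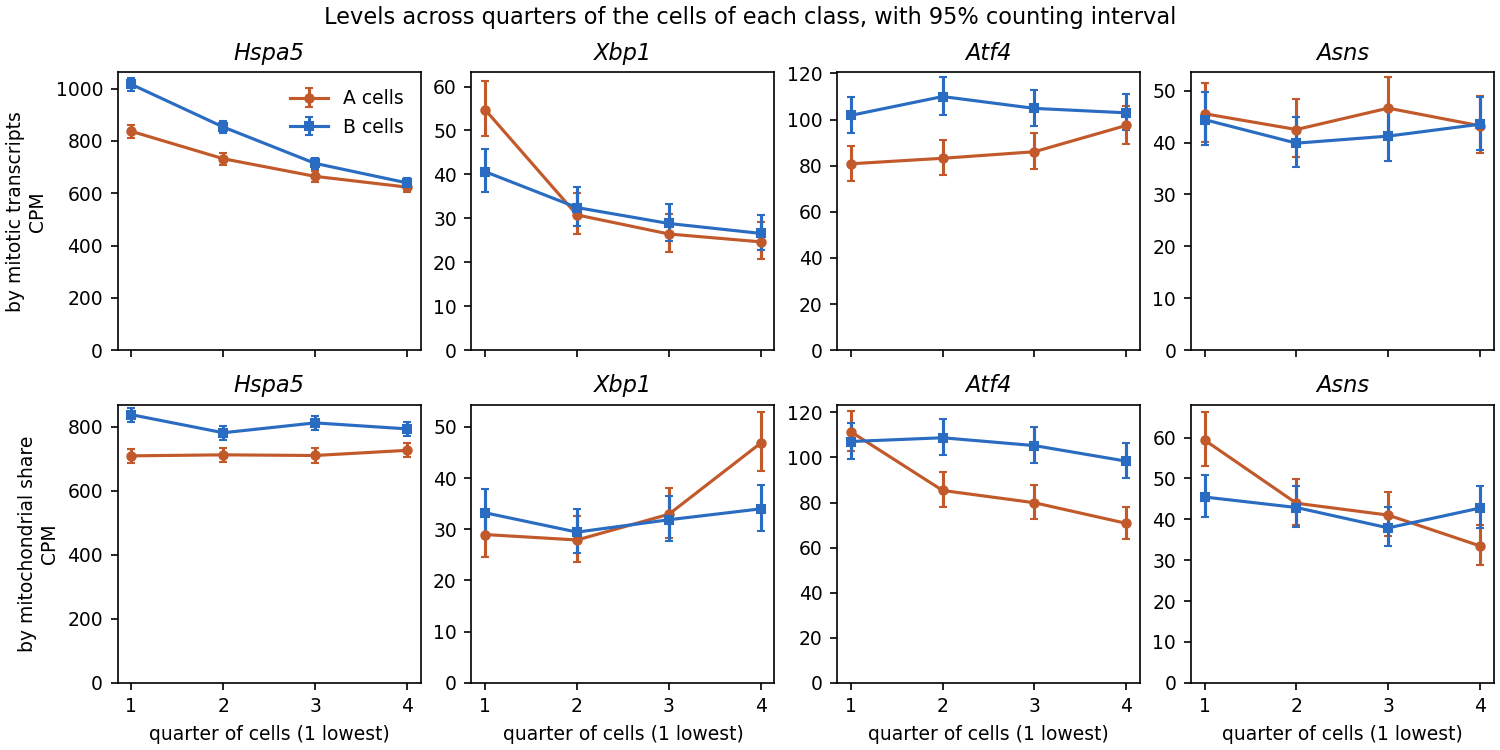
Level of Hspa5, Xbp1, Atf4 and Asns in CPM across 4 equal parts of A cells (circles) and B cells (squares), ranked by mitotic transcripts (top) or by mitochondrial share (bottom), on cells thinned to 3000 UMIs with exact 95% counting intervals. At this depth Hspa5 and Xbp1 decline with mitotic transcripts in both classes, and Atf4 and Asns decline with mitochondrial share in A cells.

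Expression states inside a class were split by marker genes, with 2 or more UMIs of one set and at least 3 times those of the other. A cells with S100g, Epcam and Tm4sf20 transcripts (1142 cells) were set against A cells with Tnc, Acta2 and Ptchd4 transcripts (2478 cells). Xbp1 was at 54.2 and 26.5 CPM, a log2 ratio of 1.03 (0.81 to 1.25), and Herpud1 at 53.1 and 28.5 CPM, 0.90 (0.68 to 1.12). The intervals of the other 8 genes held 0, with Hspa5 at 703 and 690 CPM and Atf4 at 86.7 and 86.2 CPM. Of the 7 genes with at least 10 CPM, 2 were past 1.5-fold, beside 12.6% of all genes. The states had median mitochondrial shares of 3.55% and 3.10% and median depths of 4507 and 5155.5 UMIs, whose part was not tested.

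In B cells the states were Krt14 and Sprr1a (541 cells) and Areg, Btc and Cftr (4714 cells). Ddit3 was at 29.6 and 22.4 CPM, 0.40 (0.09 to 0.71), and Asns at 50.7 and 40.8 CPM, 0.31 (0.08 to 0.54). Hspa5 was at 867 and 768 CPM, 0.18 (0.12 to 0.23), and Herpud1 at 45.2 and 37.3 CPM, 0.28 (0.02 to 0.52). The intervals of the other 6 genes held 0. These states had median depths of 6097 and 5530.5 UMIs and median mitochondrial shares of 1.98% and 1.86%, whose part was not tested. Here 0 of 7 genes were past 1.5-fold, beside 8.63% of all genes.

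In B cells and in cells of neither class, Ddit3 UMIs were concentrated in few cells. Its Fano factor, the variance over the mean of the thinned counts, was 1.15 in A cells, 1.36 in B cells and 3.36 in cells of neither class, where 1 is the value of random counting. For Atf4 it was 1.15, 1.04 and 1.202, so in A cells Ddit3 and Atf4 had the same value, and for Trib3 it was 1.13, 1.204 and 1.14. For Asns it was 1.05, 1.06 and 1.09, and for Hspa5, with far more UMIs, 1.61, 1.98 and 2.10. A set of 29 cells with at least 5 Ddit3 UMIs before thinning, chosen after the values were seen, held 276 UMIs, or 11.1% of all Ddit3 UMIs. They held 3.13% of those in A cells, 12.4% in B cells and 20.8% in cells of neither class. Of these cells, 4 were A cells, 15 B cells and 10 in neither class, and a further 17 cells had exactly 4 UMIs. The highest count was 24, and 2 of the 29 were marked as doublets.

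These 29 cells differed from all other cells in several stress transcripts. The cut favours deep cells and the 29 mix the classes, and the part of depth and class was not tested. No share over all genes was taken for this split. Of the 7 immediate early genes, Egr1 was at 622 against 9.89 CPM, Ier3 at 471 against 171 CPM and Jun at 79.3 against 23.8 CPM. Junb was at 321 against 168 CPM and Fos at 33.4 against 14.2 CPM. Ier2, at 83.4 against 74.1 CPM, had a log2 ratio of 0.17 (-0.54 to 0.80), and Fosb had 0 UMIs in the 29 cells. Egr1 had the largest ratio of the 7. Atf3, a stress-induced partner of ATF4 and CHOP, was at 430 against 14.4 CPM. Ppp1r15a, which encodes the phosphatase subunit that reverses eIF2α phosphorylation, was at 200.2 against 23.6 CPM. Not all listed ATF4 targets were higher. Stc2, Psat1 and Slc7a5 had log2 ratios of 0.01, 0.07 and 0.08, with intervals that held 0, and Eprs1 had -0.38 (-0.76 to -0.02). Atf4 was at 492 against 98.3 CPM, Herpud1 at 225 against 37.1 CPM and Hspa5 at 2044 against 752 CPM. Of the 10 genes apart from Ddit3, the sparse targets had the largest ratios, on few UMIs. Chac1 was at 50.1 against 2.12 CPM (23.6-fold, 12 UMIs), Sesn2 at 29.2 against 1.93 CPM (15.1-fold, 7 UMIs) and Trib3 at 29.2 against 2.31 CPM (12.7-fold, 7 UMIs). Asns was at 79.3 against 44.2 CPM. The intervals of Xbp1, at 50.1 against 33.3 CPM, and Sdf2l1, at 104 against 86.6 CPM, held 0. When these cells were left out, the log2 ratio of A over B for Ddit3 went from -0.07 to 0.07.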

How the data were processed

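Gene expression was measured in 1 single-cell library with the 10x 3′ v4 chemistry. The authors deposited whole-number UMI counts per gene and barcode, with no normalization, made with Cell Ranger 8.0.1 and build GRCm39 per the submitters' processing notes. A second library of the series was not analysed here. From these counts, CPM was the summed UMIs of a class over all its UMIs. Intervals are exact (Poisson, conditional binomial or Clopper-Pearson) at 95% and cover counting error only; with 1 library no test was run. Barcodes had a depth of 500 to 23576 UMIs. Scrublet (scanpy 1.11.5, expected rate 0.08) marked 778 cells (3.64%) as doublets: 146 A, 208 B and 424 of neither class. They were kept, and removing them was an alternative. Correlations and shares used cells thinned to 3000 UMIs. Cells rich in a side were cut at a whole UMI count, chosen after the data were seen, because the planned top 10% had to break many ties at random. The 10 genes, the class rule and all lists were chosen with earlier results of these data known. Named were the 10 genes, the 4 largest ratios of each list and the 10 nearest genes of each side; others were named after their values were seen. Ratios, intervals, thinning and correlations were tested on simulated data. For the intervals the class sums were drawn as Poisson counts. That checks the calculation and not whether the intervals fit counts that vary more between cells. Alternatives were other cell filters, class rules, depths, scalings and level minimums.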

Additional observations from a re-analysis of the deposited data

Results flagged for a closer look

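The 817 barcodes removed by the cell filter are data outside the comparisons, and 8 of the 10 genes had more than 3 UMIs there. These barcodes had a median of 1087 UMIs and a median mitochondrial share of 11.1%. Atf4 was at 93.6 CPM in the removed barcodes and 99.1 CPM in the kept cells. Ddit3 was at 18.1 and 21.6 CPM, and Asns at 33.0 and 44.2 CPM. Sesn2 was at 5.32 CPM (interval 1.73 to 12.4) on 5 UMIs, and 1.99 CPM in the kept cells. On the ER side Hspa5 was at 694 and 755 CPM, Xbp1 at 27.7 and 33.4 CPM, Herpud1 at 27.7 and 37.5 CPM, and Sdf2l1 at 51.1 and 86.6 CPM. Chac1 had 0 UMIs and Trib3 had 3.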

How the results depend on the processing

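The count of 0 of the 10 genes past 2-fold at 10 CPM or more held under all 11 alternatives, with 7 genes tested in 10 of them and 3 at a minimum of 50 CPM. The share of all genes past 2-fold ran from 14.3 to 19.7% over them. Of 100 alternative values for single genes, 86 stayed within the counting interval, 14 moved past it and 6 changed sign, and 0 crossed 2-fold. Centring on the median gene lowers every list median by 0.17: ATF4 targets from 0.20 to 0.03, ER chaperones from -0.14 to -0.31, ERAD from -0.12 to -0.29 and sensors from 0.40 to 0.23. Among genes of at least 50 CPM the sensors had 0.14. The strict filter moved Atf4 in A cells with Chac1 or Trib3 from 0.93 to 0.48, with an interval that held 0, and turned Asns there from 0.55 to -0.56, with both intervals holding 0. Thinning to 5000 UMIs moved the mitotic ratios of Hspa5 in A cells from -0.42 to -0.29, and of Xbp1 from -1.15 to -0.55 in A cells and from -0.61 to -0.082 in B cells; the cause was not tested. Pairs above 0 within a side, of 21, ran from 17 to 20 in A cells and 18 to 21 in B cells, while the mean r within the ATF4 targets in A cells ran from 0.0147 to 0.0573. No paired analysis was possible because there was 1 library. Depth limited Chac1, Trib3 and Sesn2, whose counts per class were 55 to 147.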

Other observations

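Further rankings of the cells gave differences that the report does not describe. By replication transcripts, the summed UMIs of 12 genes such as Mcm2 and Pcna, Asns was at 52.2 CPM in the lowest 25% of A cells and 41.8 CPM in the highest, a log2 ratio of -0.32 (-0.58 to -0.07). In B cells it was at 50.4 and 34.9 CPM, -0.53 (-0.78 to -0.28). Xbp1 was at 45.4 and 29.5 CPM in A cells, -0.62 (-0.91 to -0.33), and its interval in B cells held 0. By depth, with all cells thinned to 3000 UMIs, Ddit3 in B cells was at 14.7 CPM in the shallowest 25% and 25.2 CPM in the deepest, 0.78 (0.41 to 1.16). In A cells the same ratio was 0.33 (-0.07 to 0.73). These rankings share cells with those of the report and are given as values.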
